A study of Mus musculus with 3 samples.

Results

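The genes described here are 10 that govern how a muscle cell leaves the cell cycle: the cyclin-dependent kinase (CDK) inhibitors Cdkn1a, Cdkn1b, Cdkn1c and Cdkn2c, the D cyclins Ccnd1, Ccnd2 and Ccnd3, and the retinoblastoma family Rb1, Rbl1 and Rbl2. They were taken by symbol from a gene table of 24401 loci, and 9 of the 10 symbols had a row of their own. Rb1 had none, because its reads were reported in a locus joined with Itm2b, a neighbouring gene on chromosome 14 (73195502 to 73385310, mm10). That joint locus stood at 818 FPKM in conditioned media with resveratrol, 645 FPKM in conditioned media and 572 FPKM in control. What Rb1 contributes to these values cannot be read from them, so Rb1 enters no count below.

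RNA was sequenced from C2C12 myotubes, multinucleated muscle cells formed in culture from an immortal line of mouse myoblasts. Differentiation took 72 hours, with horse serum at 2% and insulin at 1 µg/ml in DMEM for all cultures, and each then spent 24 hours in its test medium. The first group received medium conditioned for 24 hours by S2-013 cells, a human pancreatic cancer line, with 50 µM resveratrol, a plant polyphenol. The second received S2-013 conditioned medium without resveratrol, and the third, the control, received DMEM. Each group held 1 library, so differences below carry no SD and no p-value for the conditions. Resveratrol without conditioned medium was not analysed here, and the sources used here do not say how much serum the conditioned and control media held.

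A myoblast must stop dividing before it fuses, and the arrest of the myotube is held by the network to which these genes belong. D cyclins bind and activate CDK4 and CDK6, which phosphorylate the retinoblastoma protein and its relatives p107 (Rbl1) and p130 (Rbl2). In their unphosphorylated form these pocket proteins bind E2F factors and keep replication and mitotic genes off. Cip/Kip inhibitors (p21, p27 and p57, encoded by Cdkn1a, Cdkn1b and Cdkn1c) bind cyclin-CDK complexes, and INK4 inhibitors such as p18 (Cdkn2c) bind CDK4 and CDK6 themselves. In muscle, p21, p18 and cyclin D3 are known to accumulate at differentiation, while cyclin D1 is known to be high in proliferating myoblasts and to decline.

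Values are the authors' FPKM, fragments scaled to transcript length and to the number of mapped fragments, which allow levels to be compared between genes. Depth is unknown, as FPKM carries no read count and a search for steps of whole reads found the most frequent ratio between conditioned media and control in 8 of 3436 low loci. Between 11609 and 12004 loci reached 1 FPKM in each library. The myotube markers were high, with Acta1, skeletal actin, at 2273 FPKM in conditioned media with resveratrol, 1496 FPKM in conditioned media and 1568 FPKM in control. Of the 8 myotube markers all had a mean of 1 FPKM or more, and their summed FPKM was 6377, 4537 and 5206 in these libraries in that order. With resveratrol over conditioned media 6 of the 8 had a ratio above 0 and 2 below it. Those 2 were Ckm, at 43.2, 56.3 and 60.8 FPKM, and Tnnc2, at 323, 382 and 450 FPKM, both lowest with resveratrol. Adipocyte markers summed to 0.458 FPKM or less in every library, and immune markers summed to 2.36 FPKM with resveratrol, 1.81 FPKM in conditioned media and 1.08 FPKM in control. Of these, Ptprc and Adgre1 were listed at 0 in all libraries, and Cd68 held most of the sum, at 1.82, 1.49 and 1.02 FPKM. Epithelial markers summed to 1.42 FPKM with resveratrol, 3.26 FPKM in conditioned media and 2.15 FPKM in control. Krt18 was listed at 0 in all libraries, and Krt19 stood at 1.19, 2.74 and 1.91 FPKM, lower by more than 1.5-fold with resveratrol over conditioned media (log2 ratio -0.77).

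Regulatory sequence before the gene start is shown for 3 of these genes: for Rbl1 and Rbl2, paralogs whose levels lay in opposite orders across the libraries, and for Cdkn1a, the most abundant inhibitor. RefSeq promoters of build GRCm38.p6, the same assembly as mm10, were found for 6 of the 10 symbols, with 9 gene starts. Each line gives the 250 bases before a start, 5′ to 3′ on the gene's strand, with matches to the searched letters in capitals. These letters were TTTCGCGC, TTTGGCGC, TTTCCCGC and TTTGGCGG for E2F, CAGCTG and CACCTG for the E-box bound by MyoD and myogenin, and TTTGAA for the cell cycle homology region (CHR), all on both strands.
Rbl1, chr2:157204535-157204784, minus strand: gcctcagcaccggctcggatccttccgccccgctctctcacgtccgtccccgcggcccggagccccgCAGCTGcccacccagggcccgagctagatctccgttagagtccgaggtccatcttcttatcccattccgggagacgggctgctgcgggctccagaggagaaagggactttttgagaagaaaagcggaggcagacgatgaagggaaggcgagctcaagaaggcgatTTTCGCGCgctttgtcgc
Rbl2, chr8:91069807-91070056, plus strand: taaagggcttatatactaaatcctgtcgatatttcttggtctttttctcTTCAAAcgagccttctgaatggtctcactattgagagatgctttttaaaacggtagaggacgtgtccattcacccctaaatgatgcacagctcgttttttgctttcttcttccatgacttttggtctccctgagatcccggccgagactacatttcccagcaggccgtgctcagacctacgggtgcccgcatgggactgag
Cdkn1a, second start, chr17:29093519-29093768, plus strand: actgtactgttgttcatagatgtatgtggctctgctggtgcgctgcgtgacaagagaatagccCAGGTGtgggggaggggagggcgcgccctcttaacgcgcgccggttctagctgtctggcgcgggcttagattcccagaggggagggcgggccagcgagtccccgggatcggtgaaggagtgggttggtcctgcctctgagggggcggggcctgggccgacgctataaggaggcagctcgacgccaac

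In Rbl1 the E2F letters TTTCGCGC begin 18 bases before the start and the E-box letters 183 bases before it. Rbl2 holds the CHR letters, on the other strand, 201 bases before its start. The second start of Cdkn1a holds an E-box match, on the other strand, 187 bases before it, and the first start of Cdkn1a holds CAGCTG at base 38 after the start. Windows for these shares run from 250 bases before to 50 bases after the start. Any of the E2F letters occur in 2.37% of all 32851 RefSeq promoter windows, any of the E-box letters in 32.9% and the CHR letters in 17.9%. Among the 9 windows of the cell cycle exit genes, 1 held E2F letters, 3 held E-box letters and 1 held CHR letters.

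Among the Cip/Kip inhibitors, Cdkn1a dominated every library. Cdkn1a (chromosome 17, 29090986 to 29100722, mm10) stood at 717 FPKM in conditioned media with resveratrol, 575 FPKM in conditioned media and 623 FPKM in control, and its mean exceeded that of 98.5% of the 11858 loci with a mean of 1 FPKM or more. Cdkn1b (chromosome 6, 134920377 to 134925525) stood at 48.7 FPKM with resveratrol, 46.7 FPKM in conditioned media and 38.0 FPKM in control. Cdkn1c (chromosome 7, 143458339 to 143461050), an imprinted gene, stood at 7.95 FPKM with resveratrol, 12.7 FPKM in conditioned media and 12.7 FPKM in control. Cdkn1a and Cdkn1b thus had their highest value with resveratrol, where Cdkn1c had its lowest. Cdkn1a made up 92.7% of the summed Cip/Kip FPKM with resveratrol, 90.6% in conditioned media and 92.5% in control. The order Cdkn1a, Cdkn1b, Cdkn1c held in each library, with at least 12.3 times as much Cdkn1a as Cdkn1b.

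Cdkn2c, the INK4 inhibitor p18, lies at chromosome 4, 109660832 to 109666758. It stood at 11.1 FPKM with resveratrol, 19.4 FPKM in conditioned media and 15.9 FPKM in control, lowest with resveratrol and highest in conditioned media. Its relative Cdkn2d, which encodes p19 (INK4d), lay in the same order, at 18.2 FPKM with resveratrol, 36.9 FPKM in conditioned media and 24.8 FPKM in control. Cdkn2a and Cdkn2b, which encode p16 and p15, were listed at 0 in all 3 libraries.

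**Figure D1:**
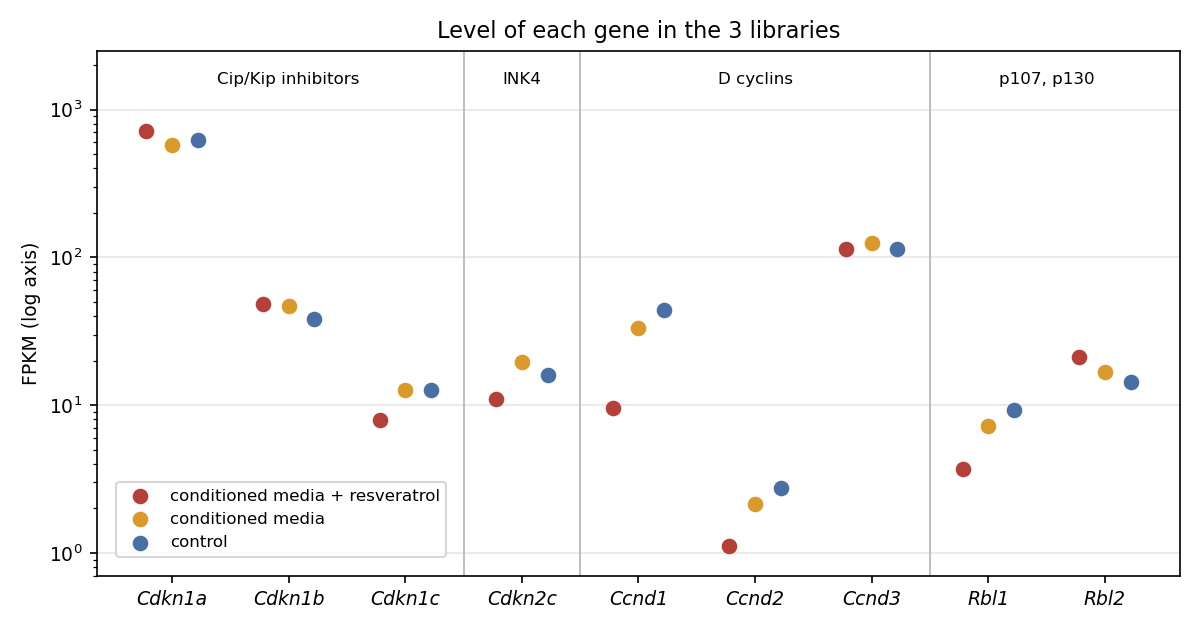
FPKM (log axis) of the 9 genes with a row of their own in conditioned media with resveratrol, conditioned media and control, 1 point per library and no error bars. Cdkn1a lies between 575 and 717 FPKM and Ccnd3 between 114 and 124 FPKM, while Ccnd1 is at 9.55 FPKM with resveratrol, below 33.0 FPKM in conditioned media and 43.8 FPKM in control.

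The 3 D cyclins stood at very different levels. Ccnd3 (chromosome 17, 47488050 to 47611492), the D cyclin of differentiated muscle, stood at 114 FPKM in conditioned media with resveratrol, 124 FPKM in conditioned media and 114 FPKM in control. Ccnd1 (chromosome 7, 144929931 to 144939925), the D cyclin induced by growth factors, stood at 9.55 FPKM with resveratrol, 33.0 FPKM in conditioned media and 43.8 FPKM in control. Ccnd2 (chromosome 6, 127125709 to 127212419) stood at 1.11 FPKM with resveratrol, 2.15 FPKM in conditioned media and 2.74 FPKM in control. Ccnd1 and Ccnd2 were lowest with resveratrol and highest in control, whereas Ccnd3 was within 1.09-fold between any 2 libraries.

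The make-up of the D cyclin pool differed accordingly. Ccnd1 was 7.65% of the summed D cyclin FPKM with resveratrol, 20.7% in conditioned media and 27.2% in control. Ccnd3 was 91.5% of it with resveratrol, 78.0% in conditioned media and 71.1% in control. The summed D cyclin FPKM was 125 with resveratrol, 160 in conditioned media and 161 in control. The 4 inhibitors with a row summed to 785 FPKM, 653 FPKM and 690 FPKM in these libraries in that order, which is 6.29, 4.09 and 4.28 times the D cyclins. Without Cdkn1a the inhibitors summed to 0.542 times the D cyclins with resveratrol, 0.494 times in conditioned media and 0.414 times in control. These ratios are of RNA and say nothing of protein.

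**Figure D2:**
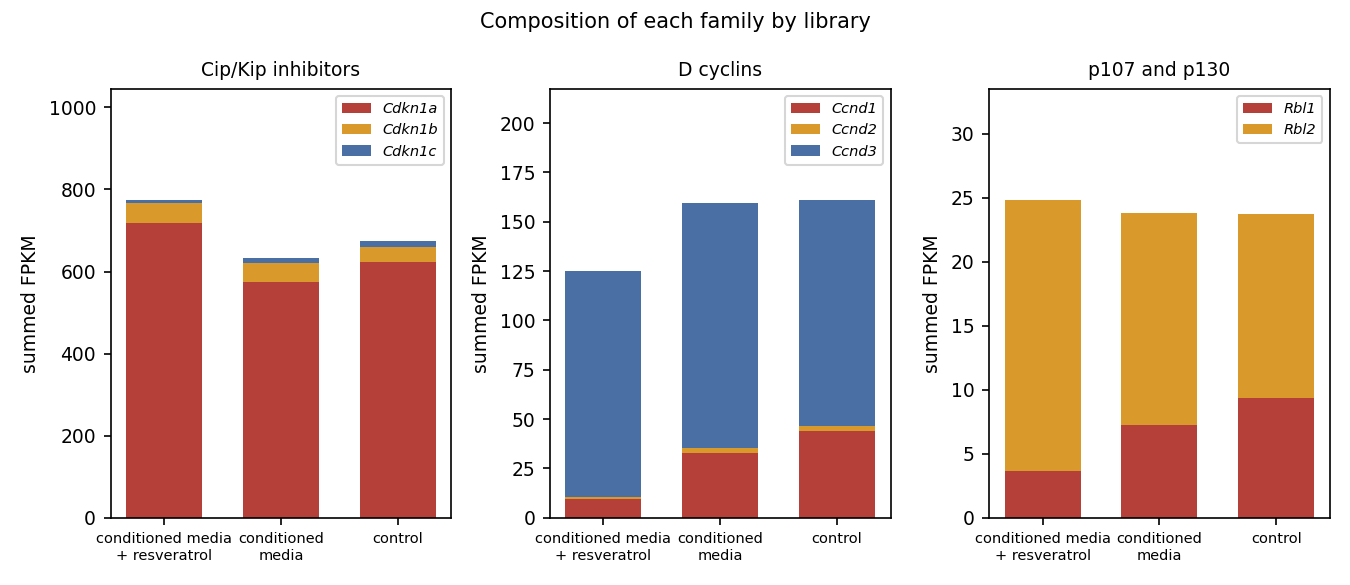
Summed FPKM of each family (stacked bars, axes from 0, 1 library per bar) in conditioned media with resveratrol, conditioned media and control. The Ccnd1 part of the D cyclin bar is 7.65% with resveratrol, 20.7% in conditioned media and 27.2% in control, and Rbl1 is 14.9%, 30.3% and 39.3% of the p107 and p130 bar.

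The pocket proteins p107 and p130 lay in opposite orders. Rbl1 (chromosome 2, 157145894 to 157204534), whose product p107 is typical of cycling cells, stood at 3.68 FPKM with resveratrol, 7.21 FPKM in conditioned media and 9.33 FPKM in control. Rbl2 (chromosome 8, 91070057 to 91135494), whose product p130 is typical of quiescent and differentiated cells, stood at 21.1 FPKM with resveratrol, 16.6 FPKM in conditioned media and 14.4 FPKM in control. Their sum was 24.8, 23.8 and 23.7 FPKM in these libraries, and the ratio of Rbl2 to Rbl1 was 5.73 with resveratrol, 2.30 in conditioned media and 1.54 in control. Rbl2 shares its reported span with Aktip, a gene on the opposite strand, which stood at 32.6 FPKM with resveratrol, 24.8 FPKM in conditioned media and 20.8 FPKM in control. The sources used here do not state the strand setting of the counting, so reads of the overlap cannot be told apart. Ccnd3 likewise shares its span with Bysl, at 14.2, 14.4 and 18.3 FPKM in that order of libraries, and Taf8, at 10.1 FPKM or less in every library. No other reported locus overlaps the Ccnd1 span, but the annotated Ccnd1 gene overlaps LTO1, a protein-coding gene on the opposite strand. Reads of that overlap cannot be told apart either.

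The first comparison asks what resveratrol changed in cancer cell conditioned medium. Differences are log2 ratios of FPKM + 1, which understate the change of low genes, and a gene counts as higher or lower where the ratio is at least 1.5-fold. Of 9 cell cycle exit genes, 4 were lower with resveratrol and 0 were higher, against 12.6% of 11858 loci that were lower and 7.59% that were higher by the same size. Their median log2 ratio was -0.58, against 0.025 for all loci. The 4 were Ccnd1, Rbl1, Cdkn2c and Cdkn1c, a D cyclin, a pocket protein and 2 inhibitors, so that genes known to promote and to restrain the cycle were among them.

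Ccnd1 had the largest difference, with a log2 ratio of -1.69 (3.45-fold less FPKM with resveratrol), and 0.995% of loci lay as far from 0. It was the 1 gene of the 9 that also passed 2-fold, a size at which 4.97% of all loci were lower. Rbl1 had a log2 ratio of -0.81, Cdkn2c of -0.76 and Cdkn1c of -0.61, values that 10.6%, 12.2% and 18.6% of loci equalled or exceeded in size. Ccnd2, at -0.58, was just under the 1.5-fold size, although its FPKM was 1.94-fold less with resveratrol, since the added 1 FPKM weighs on so low a gene. Rbl2 at 0.33, Cdkn1a at 0.32, Cdkn1b at 0.058 and Ccnd3 at -0.12 did not reach the size, and 43.9% or more of all loci lay as far from 0 as each of them. At a pseudocount of 5 FPKM Rbl1 (-0.49) and Cdkn1c (-0.45) were under the 1.5-fold size. Cdkn1c (-0.52) was also under it after FPKM were rescaled to TPM, which are smaller values on which the added 1 weighs more. Ccnd2 passed it at a pseudocount of 0.1 FPKM (-0.90).

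Of the 8 genes tested in the authors' deposited table in this comparison, it calls 7, 2 higher (Cdkn1a and Rbl2) and 5 lower (Ccnd1, Ccnd3, Cdkn1c, Cdkn2c and Rbl1), where it calls 34.1% of all tested loci higher and 29.5% lower. Its q-value is 0.00015 for Cdkn1a, Rbl2, Rbl1, Cdkn2c and Cdkn1c, 0.0023 for Ccnd1, 0.014 for Ccnd3 and 0.36 for Cdkn1b, and Ccnd2 is marked as not tested. These calls compare 2 libraries, not conditions. For Ccnd1 the authors' deposited table pairs a log2 fold change of -1.79 with a test statistic of -0.95 and a p-value of 0.00095. Such a p-value does not follow from so small a statistic, so the q-value of Ccnd1 is given as deposited and nothing is read from the call. Other genes have gaps of this kind, such as Ccnd3, with a statistic of -1.39 beside a p-value of 0.00695 in that table. Cdkn1c (-2.68), Cdkn2c (-2.69), Rbl2 (2.79) and Rbl1 (-3.11) each stand beside 5e-05, the smallest p-value there. Read as normal scores, these statistics would give larger p-values. All these calls are likewise given only as deposited. The fold change divided by the statistic, a measure of the error, is 1.88 for Ccnd1, 0.044 to 0.31 for the other 7 tested genes and 0.19 at the median of 11032 loci, and 0.29% of loci reach the value of Ccnd1. The cause of the mismatch was not tested.

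**Figure D3:**
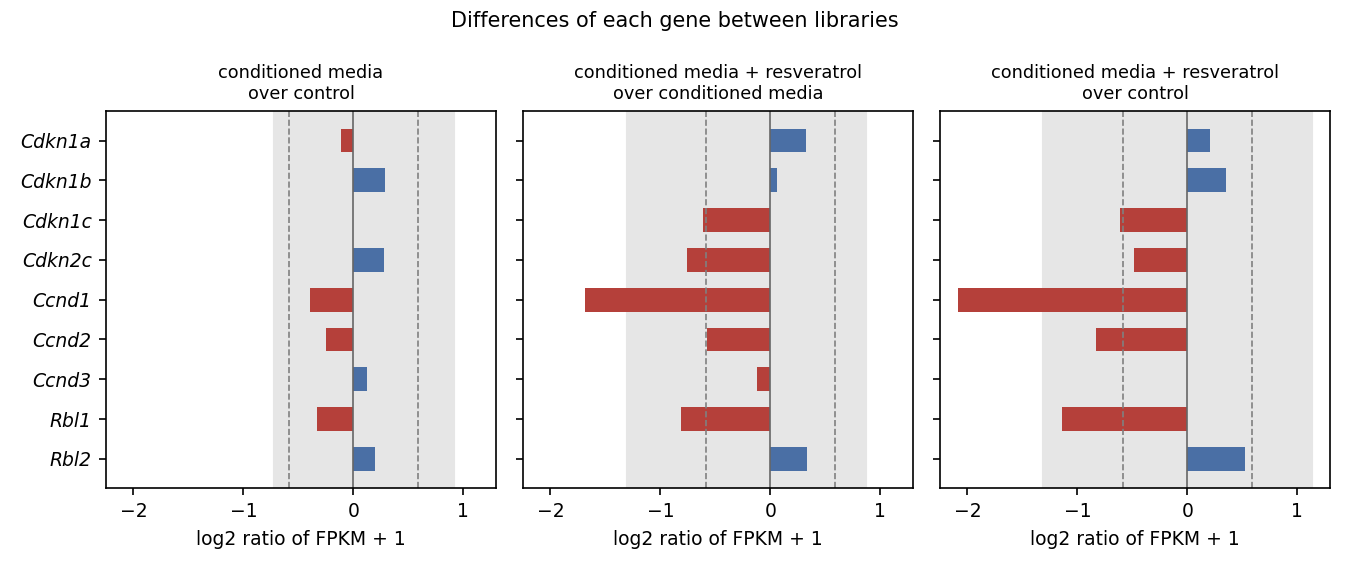
Log2 ratio of FPKM + 1 of each gene (bars, red below 0 and blue above) in the 3 comparisons, with 1 library on each side. Grey marks the central 95% of 11858 loci and dashed lines the 1.5-fold size; with resveratrol over conditioned media, Ccnd1 at -1.69 lies below the grey range, which starts at -1.30, and the other 8 genes lie inside it.

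The second comparison asks what conditioned medium changed against DMEM. None of the 9 genes was higher or lower by 1.5-fold in conditioned media over control, where 7.43% of all loci were higher and 4.92% lower. The log2 ratios ran from -0.40 for Ccnd1 to 0.29 for Cdkn1b, with a median of -0.0029 over the 9 genes and -0.011 over all loci. Rbl1 stood at -0.33, Ccnd2 at -0.25, Cdkn1a at -0.12, Cdkn1c at -0.0029, Ccnd3 at 0.12, Rbl2 at 0.19 and Cdkn2c at 0.28. Every one of these was equalled or exceeded in size by 25.3% or more of all loci. Rescaling to TPM moved the median of all loci to 0.14, and Cdkn1a to 0.079 and Cdkn1c to 0.15, so these 2 have no stable direction here. The authors' deposited table calls 7 of the 9, 4 higher and 3 lower, all but Cdkn1c (q = 0.98) and Ccnd1 (q = 0.11), where it calls 25.8% of all tested loci higher and 29.9% lower. Statistics there are again small for their p-values, at -0.62 beside 0.069 for Ccnd1, 1.17 beside 0.019 for Cdkn2c and -1.22 beside 0.014 for Ccnd2. Such gaps are also found there for Ccnd3 (1.499 beside 0.0027), Rbl1 (-1.67 beside 0.0007) and Rbl2 (1.68 beside 0.00065). Cdkn1b (2.52) and Cdkn1a (-3.23) have them too, each beside 5e-05. These results are therefore given only as deposited.

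The third comparison sets conditioned media with resveratrol against control, and so shares a library with each of the other two. By the 1.5-fold size 4 of 9 genes were lower and 0 higher, against 14.0% and 11.4% of all loci. Ccnd1 had a log2 ratio of -2.09, Rbl1 of -1.14, Ccnd2 of -0.83 and Cdkn1c of -0.62. Ccnd1 and Rbl1 also passed 2-fold, as 5.25% of loci did in the lower direction, and 0.742% and 6.20% of loci lay as far from 0. Rbl2 was at 0.52, Cdkn1b at 0.35, Cdkn1a at 0.20, Ccnd3 at -0.0026 and Cdkn2c at -0.49. The rescaling to TPM, which moved the median of all loci to 0.14 here too, put Cdkn1c at -0.37 and Ccnd2 at -0.40, under the 1.5-fold size, Rbl2 at 0.63, above it, and Ccnd3 at 0.19. At a pseudocount of 5 FPKM Cdkn1c (-0.45) and Ccnd2 (-0.34) were under it as well. Rbl1 was under 2-fold with TPM (-0.74) and at that pseudocount (-0.72). The 1 added to TPM, which are smaller than FPKM, also damps low genes, so these settings are not separate checks. The authors' deposited table calls all but 1 of the 9, 3 higher and 5 lower, where 34.1% of all tested loci are called in each direction. That 1 is Ccnd3 (q = 0.97). The call of Ccnd1 has the same mismatch here, with a test statistic of -1.19 beside a p-value of 5e-05 in the authors' deposited table. Its fold change divided by the statistic is 1.85, against 0.044 to 0.36 for the other 8 genes. Cdkn2c (-1.75 beside 0.00155) has a gap of this kind too, as do Cdkn1c (-2.62), Cdkn1b (3.05) and Ccnd2 (-3.67), each beside 5e-05. These calls are given only as deposited.

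The partners of these genes were described from lists drawn up by role, with 1.5-fold counts in resveratrol over conditioned media beside the backgrounds of 12.6% lower and 7.59% higher. Of the 6 G1 kinases, E cyclins and Cdc25a, 2 were lower and 0 higher, with a median log2 ratio of -0.50. Both were the kinases that D cyclins activate. Cdk6 stood at 3.64 FPKM with resveratrol, 8.59 FPKM in conditioned media and 8.01 FPKM in control (log2 ratio -1.05), and Cdk4 at 83.6, 136 and 143 FPKM (log2 ratio -0.69). Ccne2, a cyclin E that activates CDK2, stood at 1.96 FPKM with resveratrol, 3.23 FPKM in conditioned media and 5.35 FPKM in control. Cdkn2d, the only other INK4 gene above 0, was lower as well (log2 ratio -0.98).

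Among the 10 E2F and DP factors, 3 were lower and 0 higher, and the median was 0.17. The 3 were E2f8 at 4.17 FPKM with resveratrol, 8.98 FPKM in conditioned media and 11.6 FPKM in control, E2f7 at 1.61, 3.60 and 4.09 FPKM, and E2f2 at 2.96, 5.61 and 13.8 FPKM. E2f7 and E2f8 encode repressors that are themselves E2F targets, and E2f2 an activator. Of 6 measured genes among the MuvB core, B-Myb and FoxM1, which with p107 or p130 form the DREAM repressor complex or follow it as activators, 1 was higher. This was Lin52, at 9.89 FPKM with resveratrol, 4.91 FPKM in conditioned media and 6.64 FPKM in control. Lin54, the DNA-binding subunit, had 7.34, 4.94 and 6.08 FPKM, and Mybl2, which encodes B-Myb, 1.23, 2.26 and 3.52 FPKM. Foxm1 shared its locus with another gene and was not read.

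Of 10 genes for the turnover of inhibitors and D cyclins, 1 was lower and 0 higher. It was Cks1b, the cofactor with which SKP2 recognises p27, at 26.6 FPKM with resveratrol, 46.7 FPKM in conditioned media and 48.1 FPKM in control. Fbxo4 stood at 4.60, 7.25 and 7.96 FPKM and Fbxo31, a ubiquitin ligase subunit reported to target cyclin D1, at 6.29, 4.51 and 4.09 FPKM. Of 9 upstream regulators 3 were higher and 1 lower. Myog, myogenin, stood at 596 FPKM with resveratrol, 313 FPKM in conditioned media and 384 FPKM in control, Myod1, which is known to induce Cdkn1a, at 51.7, 28.2 and 48.2 FPKM, and Tgfb1 at 40.1, 25.3 and 26.7 FPKM. The 1 lower was Trp53, named here after its value was seen because p53 is the best known activator of Cdkn1a, at 33.9 FPKM with resveratrol, 52.6 FPKM in conditioned media and 60.5 FPKM in control.

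Downstream of the pocket proteins, the lists of G1/S and G2/M genes differed. Of 13 measured G1/S genes under E2F, 2 were lower and 1 higher with resveratrol over conditioned media, with a median of -0.087. In conditioned media over control 7 of the 13 were lower, where 4.92% of all loci were, and the median was -0.67. Tk1, thymidine kinase, stood at 5.83 FPKM with resveratrol, 19.2 FPKM in conditioned media and 27.4 FPKM in control, Rrm1, a ribonucleotide reductase subunit, at 19.3, 31.8 and 46.3 FPKM, and the licensing factor Cdc6 at 3.19, 1.66 and 5.53 FPKM. All 13 G2/M genes were lower with resveratrol over conditioned media, with a median of -2.16. Ube2c stood at 5.29 FPKM with resveratrol, 59.9 FPKM in conditioned media and 43.5 FPKM in control, Plk1 at 1.02, 17.1 and 12.2 FPKM, and Cdc20 at 4.26, 33.1 and 21.0 FPKM. These G1/S and G2/M lists hold genes already known to lie apart in these libraries and are given as values beside the cell cycle exit genes.

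The promoter letters were counted in the same lists. CHR letters were in 9 of 11 promoter windows of the G2/M genes, against 17.9% of all windows, and in 1 of 13 windows of the G1/S genes. E2F letters were in 6 of 13 windows of the G1/S genes and 5 of 12 of the E2F and DP factors, against 2.37% of all windows, and in 1 of 11 of the G2/M genes. Of the cell cycle exit genes, Rbl1 was the 1 that held E2F letters, and Rbl2 the 1 that held CHR letters, as shown above. A match is a run of letters and no evidence of binding.

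**Figure D4:**
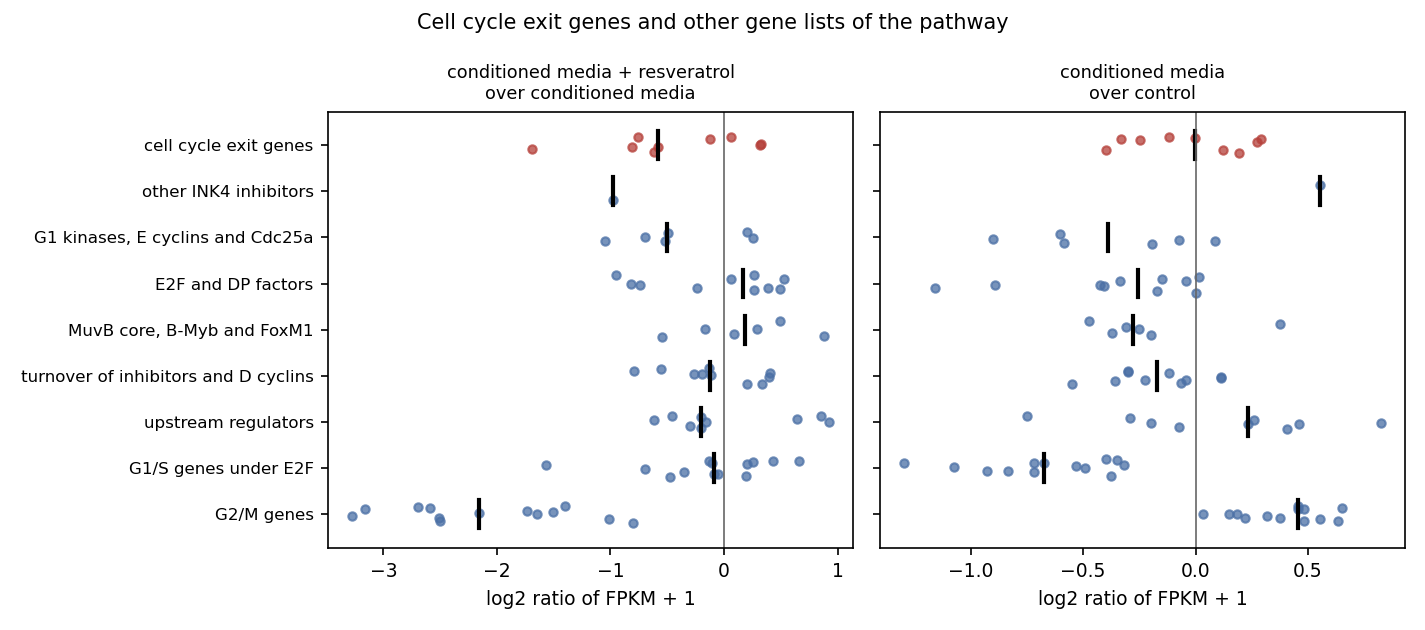
Log2 ratio of FPKM + 1 per gene (points, spread vertically for visibility) and median (black bar) for the 9 cell cycle exit genes (red) and the other lists (blue), genes with a mean of 1 FPKM or more; left, conditioned media with resveratrol over conditioned media; right, conditioned media over control, on a narrower axis. The median of the cell cycle exit genes is -0.58 on the left, above -2.16 for the G2/M genes, and -0.0029 on the right, below 0.45 for the G2/M genes.

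Markers of other cells moved in part with these differences. In bulk RNA, fewer cells of a type and less RNA per cell cannot be told apart, and C2C12 cultures keep undifferentiated cells beside the myotubes. Of 5 measured satellite and reserve cell markers, 2 were lower and 1 higher by 1.5-fold with resveratrol over conditioned media. Of all loci, 12.6% were lower and 7.59% higher by that size. Myf5, a factor of undifferentiated myoblasts, stood at 2.69 FPKM with resveratrol, 9.23 FPKM in conditioned media and 10.9 FPKM in control, while Vcam1 stood at 78.0, 49.2 and 42.6 FPKM, and the 6 listed genes summed to 325, 267 and 209 FPKM. Notch3, the other lower marker, stood at 12.1, 25.7 and 18.0 FPKM in the same order. Sdc4, the largest part of the sum in every library, stood at 174, 117 and 80.6 FPKM, and Pax7 at 0.271, 0.699 and 1.04 FPKM. Fibroblast markers summed to 2343 FPKM with resveratrol, 3332 FPKM in conditioned media and 2415 FPKM in control. By the same size, 1 of 4 measured was lower and 0 higher. The 1 was Col1a1, at 527, 1056 and 899 FPKM, lowest with resveratrol. Col3a1, the largest part of the sum, stood at 1765, 2216 and 1483 FPKM, Dcn at 43.6, 48.9 and 27.8 FPKM and Pdgfra at 6.98, 9.86 and 4.98 FPKM. These 3 were lowest in control. The part of these cells in the values of Ccnd1, Rbl1 and Cdkn2c was not tested.

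The genes whose pattern was most like that of Ccnd1 were sought among 8624 loci with a mean of 5 FPKM or more and a single symbol, leaving out the 9 genes themselves, predicted gene models and small RNA genes, by the distance over the log2 ratios of conditioned media over control and of resveratrol over conditioned media. Ccnd1 had the largest ratio of the 9 genes in each of these. The nearest were Spaca6 at 1.32 FPKM with resveratrol, 6.97 FPKM in conditioned media and 9.98 FPKM in control (distance 0.11), Pdgfc, a platelet-derived growth factor gene, at 8.42, 28.7 and 41.3 FPKM (distance 0.12), and Trabd2b at 1.43, 6.13 and 8.40 FPKM (distance 0.13). The likeness rests on 3 libraries and on ratios of FPKM + 1, which understate the change of genes as low as Spaca6 and Trabd2b.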

How the data were processed

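RNA of 3 C2C12 cultures, 1 per medium, was analysed, grouped by treatment label. The submitters' processing notes name build mm10 and Cuffdiff 2.2.1.3, Cufflinks 2.2.1.0, Bowtie, TopHat2 2.1.0, Trim Galore 0.4.3.1 and FastQC 0.69. The sources used here do not state how libraries were scaled, which annotation was used or whether strand was. The deposited table holds the authors' FPKM per locus, their log2 fold change without a pseudocount, Cuffdiff's test statistic, which is a score, and their p-values and q-values, taken as deposited.

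Log2 ratios were computed on FPKM + 1 with pandas 2.3.3 over all loci with a mean of 1 FPKM or more. Sizes of 1.5-fold and 2-fold were counted, and the size rule was tested on simulated data. No test of conditions is possible with 1 library per group. Starts were converted to 1-based positions. Positions of the members are the spans reported for their loci. Those of Ccnd2, Ccnd3 and Rbl2 reach past the annotated gene, and those of Cdkn1b and Cdkn2c do so by much less. All 9 symbols had 1 locus each. The 10 genes and all lists were chosen with earlier results of these data known. Text names all members, the 3 genes per list with the largest resveratrol over conditioned media ratio, the 3 most like Ccnd1 in pattern, markers, overlapping genes and Trp53. Alternatives were the pseudocount, the filter, TPM, centring and summed loci.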

Additional observations from a re-analysis of the deposited data

How the results depend on the processing

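Under 7 alternatives, the ratios of the single genes were on the same side of the 1.5-fold size in 176 of 186 cases. They passed it in 3 and no longer passed it in 7, and no gene past that size changed sign. Changing the filter and summing loci cannot move the ratio of a single gene, so their cases count as the same by construction. Ccnd1 ranged from -1.78 to -1.38 with resveratrol over conditioned media and from -2.19 to -1.72 over control. With a pseudocount of 5 FPKM, which damps low genes, 2 genes passed 1.5-fold with resveratrol over conditioned media (median -0.23), and 2 passed 1.5-fold and 1 passed 2-fold over control (median -0.34). At a mean of 5 FPKM or more, which leaves out Ccnd2, these medians were -0.37 and -0.24. Rescaling to TPM gave medians of -0.33 and -0.26 and 1 gene past 2-fold over control. It turned the median of conditioned media over control to 0.15, where the median of all loci moved to 0.14. TPM values are smaller than FPKM, so the 1 added to them also damps low genes, as a larger pseudocount does. The FPKM sums with resveratrol (2.96e+06) and in conditioned media (2.95e+06) are nearly equal, so scaling itself moves the ratios between these libraries little. With TPM, 68.6% of loci past 1.5-fold in resveratrol over control were higher, against 44.8% as deposited, and 85.4% against 60.2% in conditioned media over control. Summing loci changed nothing, since each symbol had 1. No paired analysis was possible because each group holds 1 library. Depth is unknown, so how it limits each gene could not be given.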
